A study of Rattus norvegicus with 10 samples.

Results

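Crem, Gem, Rasd1, Rgs2, Sik1, Pde4b, Pde4d and Pde10a are 8 genes of signalling by cyclic AMP and calcium, several of which are themselves switched on by these messengers. Here they were read in pituitary neurointermediate lobes of male rats after 3 days of dehydration and of control rats. Every probe set whose platform annotation gave exactly 1 gene symbol equal to a member was taken, which gave 19 of the 31042 probe sets of the array that are not controls, for 8 of 14217 genes. The genes were chosen by their known roles with the difference between dehydrated and control arrays of these same data already known. Their changes below are therefore a description, with no test, and support no further statement.

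The dehydrated group had 5 arrays and the control group had 5 arrays, all of the Affymetrix Rat Genome 230 2.0 type. Each array held RNA from a separate pool of 5 male Sprague Dawley rats aged 10 to 12 weeks, and arrays of a group differ as such pools do. The tissue is given as in the title and all sample labels, while the design text speaks of the supraoptic nucleus. The values are the deposited signals on a linear scale, a brightness per probe set, and a signal on 1 probe set cannot be set against that on another.

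The lobe joins the neural lobe, where vasopressin and oxytocin axons end among glial pituicytes, with the intermediate lobe of melanotrophs. Melanotrophs are held in check by dopamine through the D2 receptor, which lowers cyclic AMP. In stimulated cells cyclic AMP activates protein kinase A, and calcium activates calmodulin-dependent kinases. Both routes phosphorylate the transcription factor CREB, which binds the cyclic AMP response element (CRE) and raises transcription. Several CREB targets then damp the signal. ICER, a short product of Crem, represses CRE-dependent genes, Sik1 keeps the co-activators of CREB out of the nucleus, and Gem, Rgs2 and the phosphodiesterases act on channels, G proteins and cyclic AMP itself.

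Markers of several cell types moved between the groups and belong beside every value below. Pomc, a hormone precursor gene that melanotrophs express, read 735.0 ± 258 on dehydrated and 754.5 ± 111 on control arrays (SD, n = 5 each). It did not pass in limma (adjusted p = 0.837). Of 8 listed melanotroph markers 6 were tested and 1, Pcsk2, which encodes a prohormone convertase, fell, and their summed signal was 5447 to 6053 on dehydrated arrays and 5989 to 6934 on control arrays (exact two-sided permutation p = 0.0159). Such a sum weighs bright genes most. Scg2, also in the list of inducible genes below, read 1725 ± 158 on dehydrated and 2123 ± 184 on control arrays (SD, n = 5 each, limma adjusted p = 0.0574). Pcsk2 read 391 ± 106 on dehydrated and 715 ± 107 on control arrays. The log2 changes of Drd2, Tbx19 and Chga were -0.08, -0.01 and 0.12. Of 9 tested of 10 pituicyte and astroglia markers 3 rose (summed signal 5773 to 6572 on dehydrated and 5001 to 5756 on control arrays, exact permutation p = 0.00794). Of 6 tested of 7 endothelial and pericyte markers 4 rose (1150 to 1429 on dehydrated and 723.8 to 959 on control arrays, exact permutation p = 0.00794). Of 6 fibroblast markers 3 rose, with sums of 4345 to 5234 on dehydrated and 3288 to 3829 on control arrays (exact permutation p = 0.00794). An exact p of 0.00794 is the smallest that 5 against 5 arrays can give. Of 6 macrophage and microglia markers 1 rose and none fell, and the sums were 1444 to 2135 on dehydrated and 1666 to 2097 on control arrays (exact permutation p = 0.778). Of 6 tested of 8 anterior lobe markers 1 fell and none rose, and the sums overlapped widely, at 4824 to 9379 on dehydrated and 2574 to 7950 on control arrays (exact permutation p = 0.397). In this bulk tissue, fewer cells of a type and less RNA per cell cannot be told apart, and the part of cell makeup in the values below was not tested. The log2 ratio of 3' over 5' control signals, averaged over GAPDH and beta-actin, increases as RNA is shortened. It was 1.61 to 2.67 on dehydrated and 1.26 to 2.52 on control arrays (exact two-sided permutation p = 0.214).

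The promoters of the genes are shown because CREB acts through the CRE. RefSeq start sites of the rat assembly GRCr8 gave 15 windows of 300 bases, from 250 before to 50 after the start, for 7 of the 8 genes. The CRE was searched as TGACGTCA, which reads the same on both strands, and its core as TGACG on either strand. Every full CRE holds the core on both strands. A full CRE lay in 2 of the 15 windows, both of Crem, and in 1.83% of all 33469 windows of the assembly. The core lay in 9 of the 15 windows, at 6 of the 7 genes, and in 21.2% of all windows. Such a match is a description of letters and not a binding site. In the stretches below, 5′ to 3′ on the strand of the gene, capitals mark the full CRE in Crem and the core in the other genes.
Crem, start 2, chr17:58984707-58984796, plus strand: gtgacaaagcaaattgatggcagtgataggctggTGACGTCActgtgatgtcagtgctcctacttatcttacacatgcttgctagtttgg
Crem, start 3, chr17:58985441-58985469, plus strand: tgagttcaaagggcTGACGTCAttacatt
Sik1, chr20:9958807-9958856, minus strand: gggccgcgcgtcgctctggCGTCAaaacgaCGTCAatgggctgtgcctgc
Rgs2, chr13:58352861-58352901, minus strand: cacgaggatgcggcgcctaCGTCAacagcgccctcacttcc
Rasd1, chr10:45267782-45267822, minus strand: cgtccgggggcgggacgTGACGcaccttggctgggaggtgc
Pde10a, start 1, chr1:54765758-54765858, minus strand: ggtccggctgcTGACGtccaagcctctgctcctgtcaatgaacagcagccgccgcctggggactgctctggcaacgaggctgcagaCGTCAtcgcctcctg

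Crem spans chr17:58932011-59001160 and has 3 start sites in the table. The first, at position 58934066, had 2 cores and no full CRE, while the starts at 58984797 and 58985490 lie far inside the gene and had 1 and 2 full CREs. An internal promoter of Crem with CREs is known to make ICER. Sik1 had 2 cores, which begin 191 and 180 bases before its start. Rgs2 had 1 core at 216 bases and Rasd1 1 core at 123 bases before the start. Pde10a had cores 179 and 104 bases before its first start and none at its second. Of the 5 starts of Pde4d, 2 had a core, and both starts of Pde4b had none. Gem, at chr5:30011641-30022554, had no window.

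**Figure D1:**
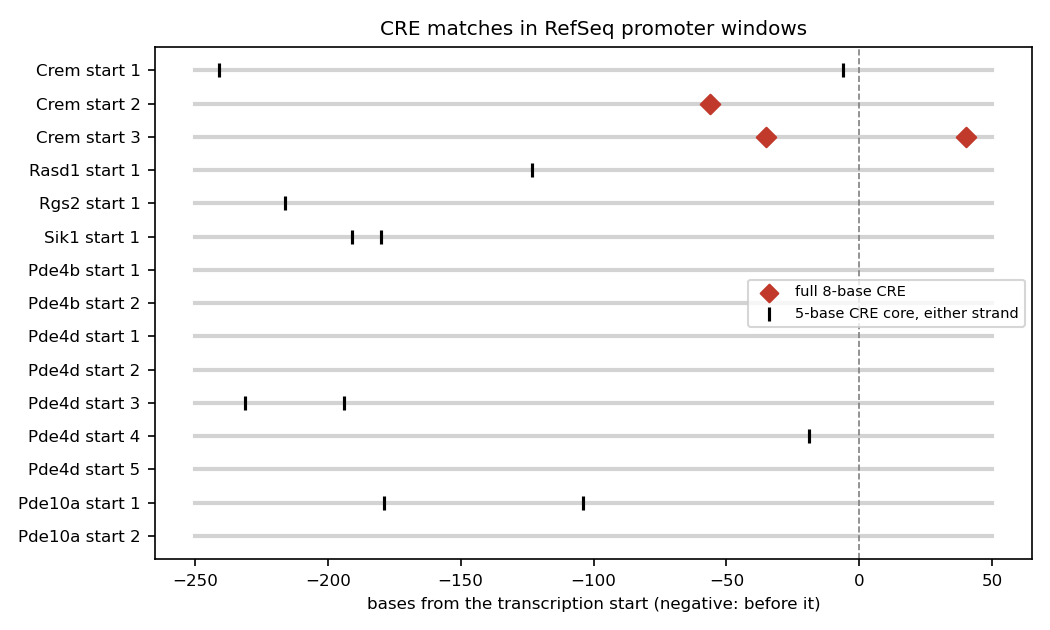
Position of CRE matches in the 15 promoter windows of 7 genes, in bases from the transcription start (dashed line); each grey bar is 1 window, diamonds are full 8-base CREs and ticks are 5-base cores outside them. Full CREs appear in 2 windows of Crem.

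A filter blind to the groups kept the brightest 60% of probe sets by mean log2 signal, 18625 in all, and 16 of the 19 member probe sets passed it. The other 3, of Pde4d (2) and Sik1 (1), were dim and were not tested. Values were transformed as log2(signal + 5), and dehydrated minus control changes with moderated standard errors (SE) come from limma, fitted over all kept probe sets. In that fit, 6 of the 16 kept member probe sets had an adjusted p under 0.05, all lower in dehydrated lobes, beside 0.784% of all tested probe sets that were lower and 1.68% that were higher. They were 2 of Crem, both of Rgs2, and those of Gem and Sik1. On 3 of the 16 every dehydrated array lay below every control array, as on 1.81% of all tested probe sets, and on none did the groups separate the other way, as on 2.78% of all. Because the genes were chosen on this contrast, nothing is read from these counts. The count of 6 was 3 without dehydrated 3 and 3 without control 2. Leaving out any other single array gave 4 to 7. Each gene is described first on its brightest kept probe set.

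**Figure D2:**
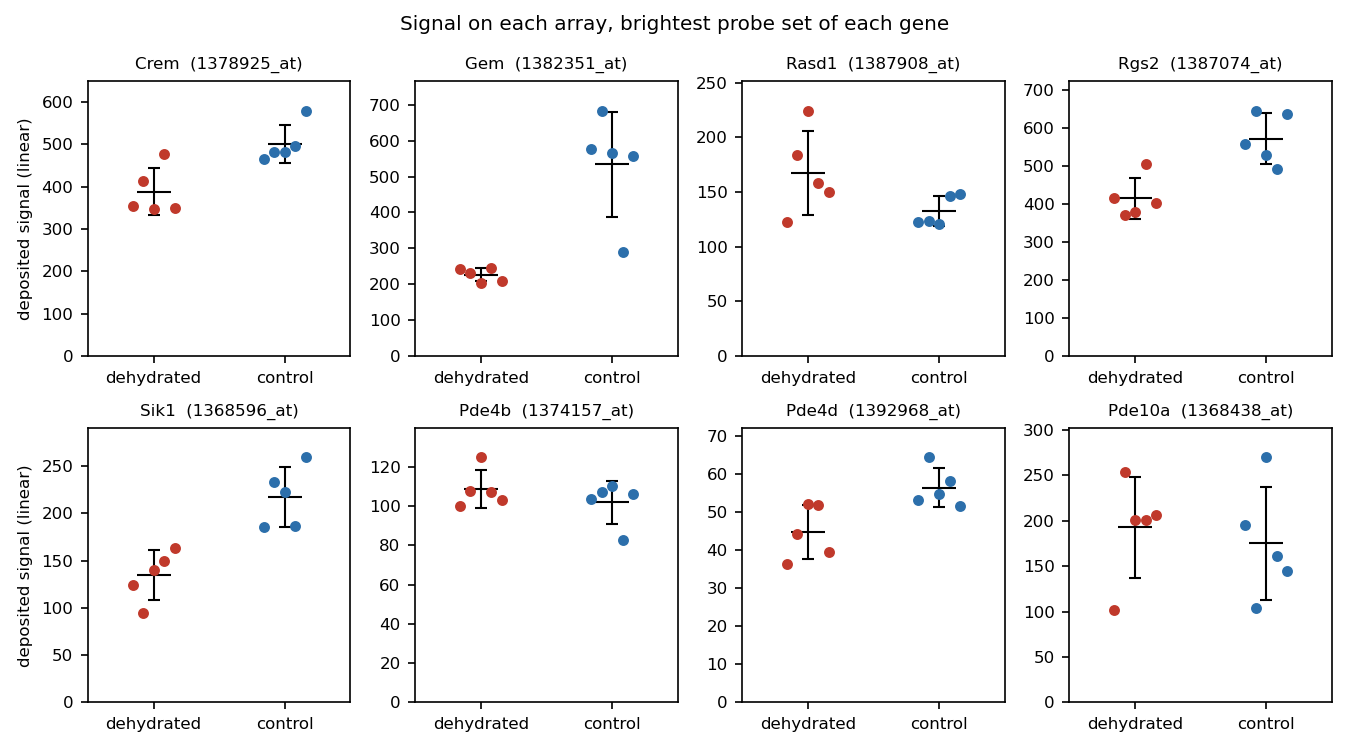
Deposited signal (linear scale) of the brightest probe set of each of the 8 genes on 5 dehydrated and 5 control arrays; points are arrays, the bar is the mean and the whiskers are 1 SD. Gem and Sik1 are the genes whose groups do not overlap.

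Gem encodes a small GTPase of the RGK family, which binds the beta subunits of voltage-gated calcium channels and lowers calcium entry. Its only probe set read 241.8, 229.9, 204.4, 245.5 and 209.7 on dehydrated arrays 1 to 5, and 576.2, 683.1, 567, 289.6 and 557.2 on control arrays 1 to 5. The dehydrated arrays lay close together and all below the lowest control array, and control 4 lay far below the other control arrays. The means were 226.3 ± 18.6 for dehydrated and 534.6 ± 146 for control arrays (SD, n = 5 each). The log2 change was -1.17 ± 0.16 (SE), the largest of the 8 genes, and 0.0752% of all tested probe sets had a change as low or lower. Without control 4 the log2 change was -1.38.

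Sik1 encodes salt-inducible kinase 1, which phosphorylates the CRTC co-activators of CREB. Its kept probe set, 1368596_at, read 124.6, 94.1, 140.1, 149.9 and 162.8 on dehydrated arrays 1 to 5, and 185.7, 233.3, 221.9, 186.8 and 259 on control arrays 1 to 5. The groups did not overlap, with 162.8 as the highest dehydrated and 185.7 as the lowest control value. The means were 134.3 ± 26.5 for dehydrated and 217.3 ± 31.4 for control arrays (SD, n = 5 each), a log2 change of -0.69 ± 0.13 (SE). The dim second probe set, 1368597_at, read 0.7 to 22.5 on dehydrated and 3.3 to 24.2 on control arrays, which overlapped throughout.

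Rgs2 encodes a protein that speeds the shut-off of Gq signals and also restrains adenylyl cyclase. Its brighter probe set, 1387074_at, read 415.5, 371.8, 378.4, 504.5 and 403.6 on dehydrated arrays 1 to 5, and 559, 645.2, 528.9, 492 and 635.9 on control arrays 1 to 5. Only dehydrated 4 and control 4 overlapped. The log2 change was -0.46 ± 0.10 (SE). The dimmer probe set, 1368144_at, read 75.5, 94.8, 95.4, 110.2 and 125.3 on dehydrated arrays, and 129.4, 158.6, 197.7, 194.9 and 199 on control arrays. There the groups did not overlap, and the log2 change was -0.78 ± 0.14 (SE). The probe sets differed in which arrays were high within a group, with r = 0.025 between them over 10 arrays after each group's mean was taken off.

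Crem encodes activators and repressors of CRE-dependent transcription, ICER among them, and had 6 probe sets, all kept. Which of its transcripts each one reads is not given in the sources used here. The brightest, 1378925_at, read 354.3, 411.9, 346.7, 475.8 and 349.7 on dehydrated arrays 1 to 5, and 463.8, 482.3, 482.1, 496.5 and 578.5 on control arrays 1 to 5. In the dehydrated group 4 arrays lay below every control array, and dehydrated 4 lay among the low control arrays. The means were 387.7 ± 56.1 for dehydrated and 500.6 ± 45.0 for control arrays (SD, n = 5 each), a log2 change of -0.37 ± 0.09 (SE). On 1393550_at the signals were 75.7, 54.4, 53.3, 84.7 and 60.3 on dehydrated arrays and 110.3, 103.1, 92, 78.2 and 106 on control arrays, a log2 change of -0.55 ± 0.14 (SE). Control 4 was the lowest control array on this probe set, and it alone of the control arrays lay among the dehydrated values.

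The other Crem probe sets all had negative changes of different sizes. The lowest was on 1396545_at, with 27.2 to 56.7 on dehydrated and 56.1 to 137.2 on control arrays and a log2 change of -0.85 ± 0.22 (SE). On 1369737_at the change was -0.53 ± 0.15 and on 1369738_s_at -0.40 ± 0.14 (SE), and the groups overlapped on both. On 1387714_at, with 20.5 to 47.1 on dehydrated and 28.5 to 46.3 on control arrays, it was -0.10 ± 0.19 (SE), smaller than its error. Within groups the Crem probe sets did not vary as 1 signal: over their 15 pairings r ran between -0.63 and 0.82 after each group's mean was taken off (n = 10 arrays).

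**Figure D3:**
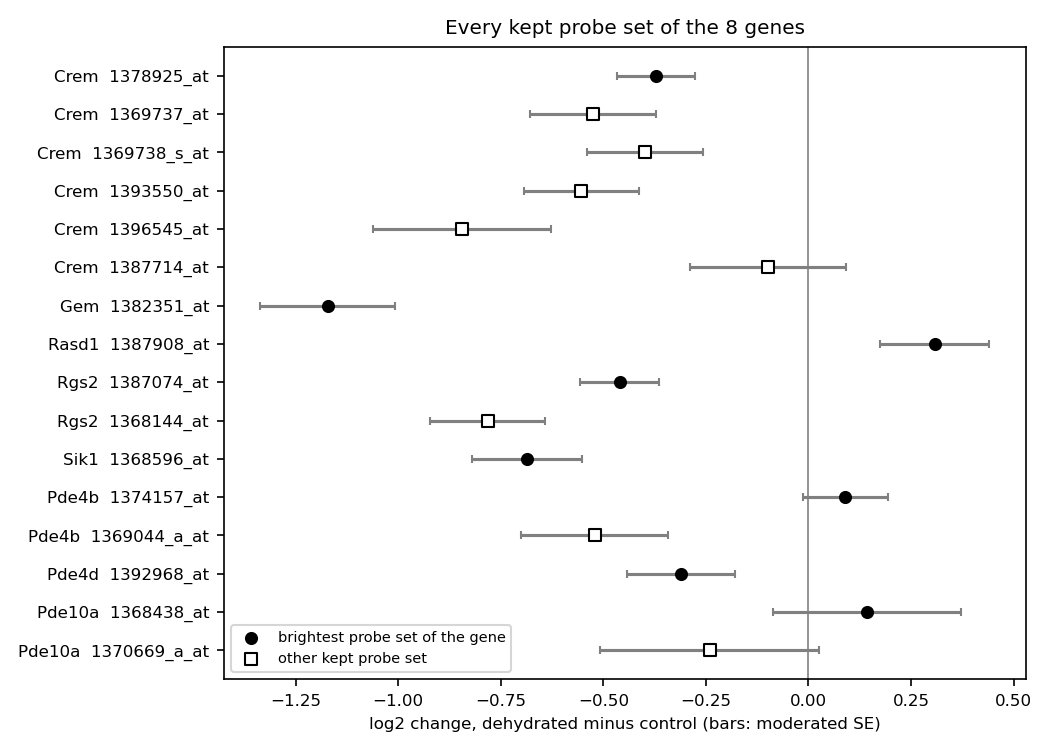
Log2 change (dehydrated minus control) of the 16 kept probe sets of the 8 genes, with moderated SE as whiskers; filled circles are the brightest probe set of a gene and open squares the others. Changes run from -1.17 for Gem to 0.31 for Rasd1, and the probe sets of Pde4b and of Pde10a lie on different sides of 0.

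Rasd1, also called Dexras1, encodes a Ras-like GTPase that glucocorticoids induce, first found in a mouse pituitary corticotroph line. It read 122.3, 184.2, 224.3, 158.1 and 149.9 on dehydrated arrays 1 to 5, and 122.6, 123.9, 121, 146.4 and 148 on control arrays 1 to 5. In the dehydrated group 4 arrays lay above every control array, and dehydrated 1 lay with the low control arrays. The means were 167.8 ± 38.6 for dehydrated and 132.4 ± 13.6 for control arrays (SD, n = 5 each). The log2 change was 0.31 ± 0.13 (SE) and did not reach an adjusted p of 0.05 in the fit. It was the highest change of the 8 genes.

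Pde4b and Pde4d encode phosphodiesterases that degrade cyclic AMP only. The brighter Pde4b probe set, 1374157_at, read 100, 107.8, 124.7, 107.2 and 102.8 on dehydrated arrays 1 to 5, and 103.4, 107.2, 109.9, 82.6 and 106 on control arrays 1 to 5. These groups overlapped almost fully, and the log2 change was 0.09 ± 0.10 (SE). The dimmer one, 1369044_a_at, read 18.1, 17.9, 14, 23.9 and 22.6 on dehydrated arrays, and 20.8, 31.2, 32.1, 32.2 and 32.9 on control arrays. Its log2 change was -0.52 ± 0.18 (SE), and neither probe set reached an adjusted p of 0.05. This one passed the brightness filter through the control arrays, since its mean was 19.3 on dehydrated and 29.8 on control arrays and the filter lay at a signal of 22.4. Its sign, unlike that of the brighter probe set, and the change of -0.22 with both averaged rest on these dim values. Pde4d, on 1392968_at, read 36.5, 44.3, 52.1, 51.8 and 39.6 on dehydrated arrays, and 53.3, 64.4, 54.8, 58.2 and 51.7 on control arrays. Its log2 change was -0.31 ± 0.13 (SE), with dehydrated 3 and 4 overlapping control 5. The dim Pde4d probe sets read 0.9 to 17.2 and 13.5 to 22.4 on dehydrated arrays, and 1.5 to 4.2 and 13.1 to 26.1 on control arrays.

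Pde10a encodes a phosphodiesterase of both cyclic AMP and cyclic GMP, abundant in the striatum. Its brighter probe set, 1368438_at, read 101.2, 253.5, 200.7, 200.6 and 206.6 on dehydrated arrays 1 to 5, and 195.3, 104.4, 269.6, 161.6 and 144.7 on control arrays 1 to 5. The low arrays, dehydrated 1 and control 2, lay in different groups. The log2 change was 0.14 ± 0.23 (SE), and it was 0.35 without dehydrated 1 and -0.02 without control 2. The dimmer probe set, 1370669_a_at, read 23.1 to 61 on dehydrated and 25 to 67 on control arrays, a log2 change of -0.24 ± 0.27 (SE).

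The within-group spread does not depend on the difference between the groups, and it was set against the 3' to 5' ratio for the 16 kept probe sets. Sik1 followed the ratio closely. With each group's mean taken off, r was -0.87 over 10 arrays (exact permutation p = 0.000972 over the orders of arrays within groups, adjusted p = 0.0111 over 16 relations) and Spearman's rho was -0.92 (exact permutation p = 0.00139, adjusted 0.0222). Without the 2 arrays whose ratio, with group means taken off, lay farthest from its median, r was -0.85. It was -0.95 within the dehydrated and -0.87 within the control group (n = 5 each). Of all tested probe sets, 2.00% had an r this low or lower. With the ratio as a covariate the log2 change of Sik1 was -0.50 ± 0.10 (SE), against -0.69 without it.

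Among the other probe sets, 1369738_s_at of Crem also followed the ratio, with r = -0.92 (exact permutation p = 0.00139, adjusted p = 0.0111) and rho = -0.78 (exact permutation p = 0.0157, adjusted 0.0850), and r = -0.85 without the same 2 arrays. Its log2 change was -0.19 ± 0.10 with the covariate. The dimmer Rgs2 probe set had r = -0.75 (exact permutation p = 0.0213, adjusted p = 0.113) and rho = -0.79 (exact permutation p = 0.0181, adjusted 0.0850), and r = -0.67 without the 2 arrays. With the covariate its change was -0.61 ± 0.12 (SE). The brighter Rgs2 probe set had r = -0.35 (exact permutation p = 0.347) and rho = -0.38 (exact permutation p = 0.310), with a change of -0.41 ± 0.10 under the covariate. For Gem r was -0.05 (exact permutation p = 0.906) and rho -0.05 (exact permutation p = 0.904), and its change of -1.16 ± 0.18 with the covariate was close to -1.17 without it. On 1396545_at of Crem the relation ran the other way, with r = 0.69 (exact permutation p = 0.0471, adjusted p = 0.151) and rho = 0.66 (exact permutation p = 0.0614, adjusted 0.164), and r = 0.31 without the 2 arrays. Its change was -1.10 ± 0.19 with the covariate. The dimmer probe sets of the phosphodiesterases also had negative relations that did not pass adjustment. For Pde4b 1369044_a_at r was -0.70 (exact permutation p = 0.0426, adjusted p = 0.151) and rho -0.75 (exact permutation p = 0.0213, adjusted 0.0850), with r = -0.46 without the 2 arrays and a change of -0.38 ± 0.19 with the covariate. For Pde10a 1370669_a_at r was -0.64 (exact permutation p = 0.0678, adjusted p = 0.181) and rho -0.71 (exact permutation p = 0.0415, adjusted 0.133), with r = -0.87 without the 2 arrays. Its change was 0.05 ± 0.24 with the covariate, against -0.24 without it, and both were smaller than their errors. On 1369737_at of Crem r was -0.56 (exact permutation p = 0.130, adjusted p = 0.296) and rho -0.45 (exact permutation p = 0.225, adjusted 0.515). Its change was -0.38 ± 0.15 with the covariate, against -0.53 without it. Of the 16 relations 12 were negative, beside 45.9% of all tested probe sets. Several of the 16 belong to the same gene, so they are not separate members.

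**Figure D4:**
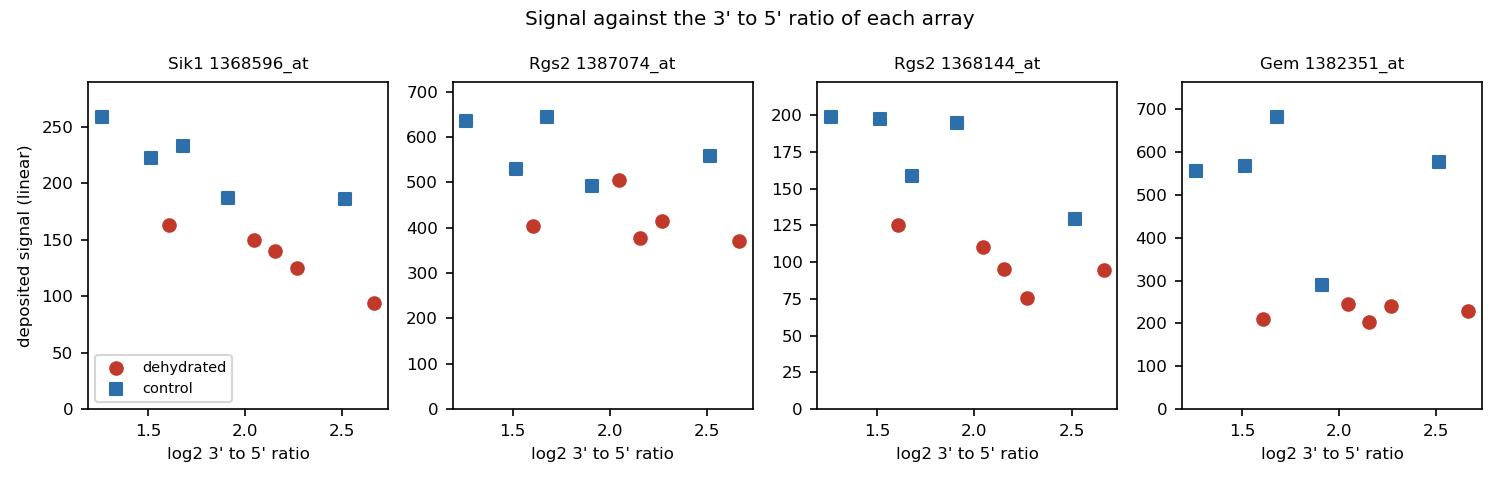
Deposited signal (linear scale) of 4 probe sets of Sik1, Rgs2 and Gem against the log2 3' to 5' ratio of each array; circles are dehydrated and squares control arrays. Sik1 and the dimmer Rgs2 probe set are lower on arrays of higher ratio in both groups, and the dehydrated values of Gem lie between 204.4 and 245.5 at every ratio.

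Within the groups the genes were also set against each other. Over 28 pairings of their brightest probe sets, with group means taken off, r ran between -0.41 and 0.66 with a median of 0.18, and 20 were positive. None passed adjustment, and 1 had an unadjusted exact permutation p under 0.05. That pair was Gem with Rgs2, with r = 0.63 (exact permutation p = 0.0121, adjusted p = 0.338 over the 28) and rho = 0.68 (exact permutation p = 0.0156, adjusted 0.436). Without the 2 arrays whose Gem value, with group means taken off, lay farthest from its median, r was 0.41. The pair of highest r was Gem with Pde4b, at 0.66 (exact permutation p = 0.162) with rho = 0.41 (exact permutation p = 0.215). It rested on the same 2 arrays, without which r was -0.20. Both genes had their lowest control value on control 4, and so did Rgs2 on its brighter probe set (492).

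The genes most like each member in within-group pattern were taken from 10593 genes by r over the 10 arrays, as a description. The highest r of so many genes over so few arrays is large even where genes are unrelated. Shared control was not tested. They were Atp1b3 (0.97) and Lman1 (0.97) for Sik1, Pdk1 (0.93) and Dyrk3 (0.92) for Gem, Cd82 (0.87) and Frmd8 (0.86) for Rgs2, and Coq8a (0.93) and Gins3 (0.90) for Crem. For Rasd1 they were Atoh8 (0.93) and Bcas1 (0.93), for Pde4b Wee1 (0.94) and Glb1l (0.93), for Pde4d Cmtm7 (0.92) and Asxl2 (0.90), and for Pde10a C3h9orf78 (0.92) and Gar1 (0.92). The r of the gene ranked 100 was 0.89 for Sik1 and 0.67 to 0.74 for the other 7 members, so many genes shared the pattern of Sik1.

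The other genes of the pathway, in 8 lists that leave out the members, were read on their brightest kept probe set. Of 187 listed genes 119 were tested, and the others had no kept probe set with exactly 1 symbol. Of the 119 tested genes 4 rose and 9 fell, beside 2.31% of all 10593 genes that were higher and 0.878% that were lower. Their median log2 change was -0.03, and that of all genes was 0.01. An unadjusted limma p under 0.05 was found for 35 of the 119 and for 1997 of all 10593 genes. Negative changes were found for 64 of the 119 and for 5128 of all 10593. These lists were drawn up with earlier results of these data known.

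The tested genes that make and carry the cyclic AMP signal gave no call. Of 24 listed Gs- and Gi-coupled receptor genes only 9 were tested. None of the 9 passed in limma and 2 had an unadjusted p under 0.05 (median log2 change 0.03). The smallest p was that of Adora2a, the Gs-coupled adenosine A2a receptor, with 62.5 ± 10.8 for dehydrated and 84.1 ± 9.48 for control arrays (SD, n = 5 each, log2 change -0.41 ± 0.13 SE, limma adjusted p = 0.108). It passed without dehydrated 5 (adjusted p = 0.0361). The D2 receptor gene Drd2, named after its value was seen, had a log2 change of -0.08 (adjusted p = 0.594). Of 21 genes of cyclic AMP production and protein kinase A none passed, 4 had an unadjusted p under 0.05, and 16 had a negative change (median -0.09). The smallest p was that of Rapgef3, a cyclic AMP-activated exchange factor also called EPAC, with 47.0 ± 4.72 for dehydrated and 31.4 ± 5.21 for control arrays (SD, n = 5 each). Its log2 change was 0.52 ± 0.15 SE (limma adjusted p = 0.0681), and it passed with quantile, cyclic loess or median scaling and without an intensity trend (adjusted p down to 0.0420).

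Of 8 other phosphodiesterase genes none passed in limma and 3 had an unadjusted p under 0.05 (median log2 change 0.19). The smallest p was that of Pde9a, a cyclic GMP-specific enzyme, with 149.9 ± 10.7 for dehydrated and 126.9 ± 8.81 for control arrays (SD, n = 5 each, log2 change 0.23 ± 0.09 SE, limma adjusted p = 0.186). Of 12 genes of CREB factors, co-activators and class IIa deacetylases none passed and 1 had an unadjusted p under 0.05 (median -0.08). It was the deacetylase gene Hdac7 (log2 change -0.36 ± 0.16 SE, limma adjusted p = 0.275). Of 12 genes of RGK and Ras-like GTPases and calcium channel subunits none passed and 2 had an unadjusted p under 0.05 (median 0.01). There the smallest p belonged to Rem2, of the same family as Gem, with 96.2 ± 16.1 for dehydrated and 130.7 ± 18.5 for control arrays (SD, n = 5 each, log2 change -0.43 ± 0.13 SE, limma adjusted p = 0.0941).

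Calcium and calmodulin signalling had 22 tested genes, of which 1 fell and none rose (median log2 change 0.01). It was Ppp3r1, the regulatory subunit of the phosphatase calcineurin, with 511.6 ± 54.2 for dehydrated and 710.5 ± 83.9 for control arrays (SD, n = 5 each, log2 change -0.47 ± 0.09 SE, limma adjusted p = 0.00981). Its call ended when its probe sets were averaged (log2 change -0.20, adjusted p = 0.502) and without an intensity trend (adjusted p = 0.0538). Of 12 other RGS genes 2 rose and none fell (median 0.09). Rgs10 rose to 288.2 ± 27.4 on dehydrated arrays, against 173.4 ± 28.4 on control arrays (SD, n = 5 each, log2 change 0.73 ± 0.11 SE, limma adjusted p = 0.00161). Rgs5, a pericyte gene that is also in the endothelial and pericyte marker list, rose to 188 ± 21.0 on dehydrated arrays, against 112.0 ± 10.9 on control arrays (SD, n = 5 each, log2 change 0.72 ± 0.10 SE, limma adjusted p = 0.000733).

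Most of the calls were among other genes that cyclic AMP and calcium induce, with 23 tested of 38 listed. This list too was drawn up with earlier results of these data known, so nothing is read from its share of the calls. Of these 8 fell, 2 rose and 13 did not pass (median log2 change -0.19). The largest decreases were those of the orphan nuclear receptor genes Nr4a2 (log2 change -1.99), Nr4a1 (-1.89) and Nr4a3 (-1.64) and of the AP-1 gene Fos (-1.46), with limma adjusted p of 2.20e-05, 2.66e-06, 0.000887 and 0.00862. The call of Fos ended with a robust variance model (adjusted p = 0.0731). Dusp1 (log2 change -1.33), Junb (-1.12) and Egr1 (-0.99), named after their values were seen, fell as well. Their limma adjusted p were 0.000822, 0.0199 and 0.00951. These calls were not followed gene by gene over the alternatives. Without an intensity trend 6 pathway genes were called lower, against 9 in the main fit. Nr4a1, Nr4a2, Nr4a3, Fos and Bdnf were among them, so the calls of Dusp1, Junb and Egr1 did not all hold. The groups overlapped for Junb (control 4 at 45.4, dehydrated 4 at 48.7) and for Fos (control 3 at 446.4, dehydrated 1 at 471.7). The smallest of the called decreases was that of Bdnf. Bdnf, also named after its value was seen, encodes a neurotrophin with a CREB-responsive promoter. It fell to 64.7 ± 7.32 on dehydrated arrays, against 102.2 ± 8.62 on control arrays (log2 change -0.62 ± 0.11 SE, limma adjusted p = 0.00486). The genes that rose, also named after their values were seen, were the transcription factor genes Egr2 (log2 change 1.29, limma adjusted p = 0.000293) and Cebpd (0.50, limma adjusted p = 0.0449). The call of Cebpd ended in 12 of 22 alternatives: with no brightness filter, with no intensity trend, with the RNA ratio as covariate, and without any single array but dehydrated 5 (adjusted p up to 0.128).

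**Figure D5:**
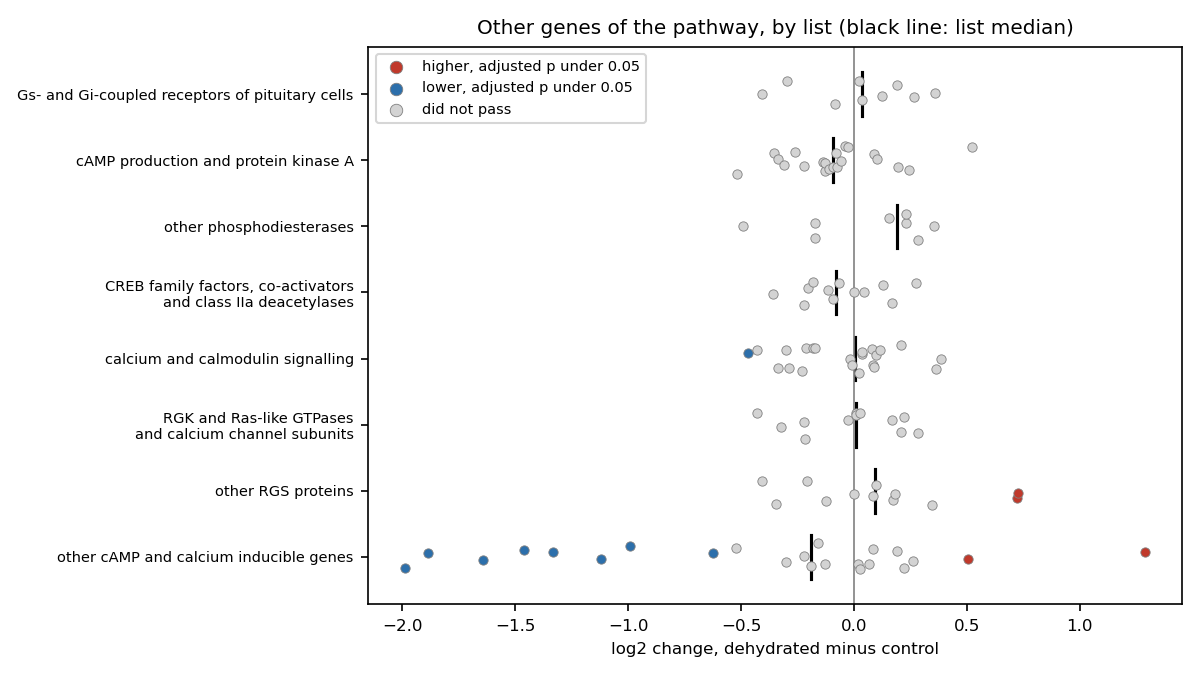
Log2 change (dehydrated minus control) of the tested genes of 8 pathway lists, 1 point per gene; red and blue mark genes higher and lower in dehydrated lobes at a limma adjusted p under 0.05, and black lines are list medians. Of the 13 called genes, 10 lie in the list of other inducible genes, which was drawn up with earlier results of these data known.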

How the data were processed

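The authors deposited a linear-scale intensity for each probe set on each array. The array software GCOS 1.2 is named in the submitters' processing notes; its algorithm and settings are not given in the sources used here. The deposited intensities had a common level, a trimmed mean near 100 on every array, and were not rescaled, so changes are relative to the average probe set. Detection calls were not used here. Of 31099 probe sets 57 controls were left out. Symbols come from the platform annotation. The fit used limma 3.58.1 in R 4.3.3 (lmFit, eBayes with an intensity trend, two-sided, Benjamini-Hochberg over 18625 probe sets, called under 0.05), on log2(signal + 5), which understates changes of dim genes. Single values had exact permutation tests over 252 choices of 5 of 10 arrays, and correlations, added to the plan, used 14400 orders within groups. The members and lists were chosen with earlier results of these data known. Named list genes are up to 4 called by size or, with none called, the one of smallest p; the 2 nearest genes per member; and those said to be named later. Promoters are from RefSeq, GRCr8; printed stretches stop before the start. The fit was tested on simulated data. Figures used matplotlib 3.10.9.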

Additional observations from a re-analysis of the deposited data

Results flagged for a closer look

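Within groups of 5 arrays, a lowest or highest array was marked when its gap to the nearest other array was over 0.71 of the group's range on the log2 scale (Dixon's test). This held in 7 of 56 groups examined, where chance marks about 1 in 20. Of the members, Gem was low on control 4 (289.6, next 557.2, gap 0.762 of the range), and so was Pde4b on 1374157_at (82.6, next 103.4, gap 0.785). On 1369044_a_at Pde4b was low on control 1 (20.8, next 31.2, gap 0.881), and Pde10a was low on dehydrated 1 (101.2, next 200.6, gap 0.743). Of the list genes, Ppp3r1 was high on control 1 (858.2, next 694.1, gap 0.782), Rem2 low on dehydrated 3 (68.9, next 99.5, gap 0.754) and Rgs5 low on control 1 (93.3, next 113, gap 0.748). The causes were not tested.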

How the results depend on the processing

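Over 22 alternatives, the log2 change of Gem (-1.38 to -1.07), Sik1 (-0.81 to -0.50), Crem (-0.47 to -0.32), Rgs2 (-0.62 to -0.41) and Rasd1 (0.20 to 0.41) kept its sign and moved by less than 1 pooled within-group SD. So did that of Pde4d over the 21 that gave a value (-0.36 to -0.25). With 5 arrays per group, leaving out 1 array, or dehydrated 5 and control 1 together, cannot move a change by that SD. The filter and variance settings leave the log2 change as it is. Only the scaling, pseudocount and covariate settings could have moved it that far, and for Crem and Rgs2 also averaging. Gem, Sik1, Rasd1 and Pde4d have 1 kept probe set each, so averaging left their changes as they were. Pde10a changed sign in 2 of 22 (-0.05 to 0.35), and Pde4b was -0.22 with probe sets averaged. The 458 probe sets called over the whole array (312 higher, 146 lower) became 240 without an intensity trend (156 higher, 84 lower) and 1398 without dehydrated 5 and control 1 together (666 higher, 732 lower); leaving out 1 array gave 218 to 1163 (142 to 653 higher, 76 to 510 lower), the least without dehydrated 3 and the most without dehydrated 5. Counts over 1.5 times lower also came without dehydrated 1 (300) and controls 2 (299), 3 (287), 4 (299) and 5 (305). The 6 member probe sets called lower were 3 without an intensity trend, 3 to 7 with 1 array left out and 8 without the 2 arrays; none was called higher. The 13 pathway genes called were 10 without an intensity trend (4 higher, 6 lower) and 21 without the 2 arrays (16 lower). With 1 array left out they were 11 to 19 (3 to 4 higher, 8 to 15 lower, the most without dehydrated 5). The causes were not tested. Signal over background was not used here, so the limits for dim probe sets are unknown. The labels give no replicate number that joins arrays across groups.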
